A study of Mus musculus with 12 samples.

Results

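Cholesterol and fatty acids are built from the same starting material, acetyl-CoA. In the sterol branch, acetyl-CoA passes through mevalonate and isoprenoid intermediates to squalene, which is closed into a ring and trimmed to cholesterol. In the fatty acid branch, acetyl-CoA is carboxylated, joined into saturated chains, and then lengthened and desaturated. Both branches are transcribed under SREBP transcription factors, membrane-bound proteins that the escort protein SCAP carries from the endoplasmic reticulum to the Golgi for cleavage when sterols are low, while INSIG proteins hold SCAP back when sterols are plentiful. Fibroblasts in culture need both lipids to make membrane, and they also take up both from serum.

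The genes described here were 30 genes of these branches chosen by symbol from knowledge of the pathway, among 24419 genes in the count table. They comprised 18 genes of sterol synthesis (Acat2, Hmgcs1, Mvk, Pmvk, Mvd, Idi1, Fdps, Fdft1, Sqle, Lss, Cyp51, Tm7sf2, Msmo1, Nsdhl, Hsd17b7, Ebp, Sc5d and Dhcr7), 5 genes of the control system and sterol transport (Srebf1, Srebf2, Scap, Insig1 and Stard4), and 7 genes of fatty acid synthesis (Acly, Acss2, Acaca, Fasn, Elovl6, Scd1 and Scd2). All 30 were in the table, and all 30 passed the filter on low counts, as did 15759 genes in all. The rule names genes by symbol and sets no cut-off on a measured value, but the list was drawn up with earlier results of these data known. It is a selection and does not hold every gene of either branch.

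The data were RNA sequencing counts from 12 cultures of fibroblasts of mid-gestation mouse embryos (MEFs), 3 from each of 4 TN genotypes on the C57BL/6 strain, each culture from its own embryo. TN mice carry a Tyr::CreERT2 transgene, whose promoter drives a tamoxifen-dependent Cre in melanocytes, and 2 copies of an Nras allele held silent by a floxed stop cassette (LSL-Nras). Codon 61 of that allele encodes the wild-type glutamine in 61Q/Q, proline in 61P/P, histidine in 61H/H and arginine in 61R/R. The study classes 61R/R and 61H/H as melanomagenic, and 61P/P and 61Q/Q as not. MEFs of every genotype, including the 61Q/Q controls, were infected at passage 3 with an adenovirus that expresses Cre and eGFP from the CMV promoter, which removed the stop cassette, and were then grown for 6 days in medium with 10% fetal bovine serum. There was no uninfected culture and no culture without serum in these data, and fibroblasts are not the melanocytes in which the alleles drive tumors.

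Library depth was 73222911 to 92179519 counts, of which the 45S ribosomal RNA precursor Rn45s made up 8.89% to 13.9%. Each genotype held 1 library with Xist counts and 2 with Y-linked counts, so the embryos were of both sexes. Fibroblast markers led in every genotype. Their summed level over 12 markers was 32180 to 43590 CPM (normalised counts per 1000000) in 61Q/Q and 16290 to 29540 CPM in the 3 mutants. The marker with the highest mean was Col1a1 in 61Q/Q, 61P/P and 61R/R, and Vim in 61H/H. Of 6 hepatocyte markers, none passed the filter and Serpina1a had 0 counts in all libraries, and 8 adipocyte markers summed to 11.3 to 30.8 CPM. Nras itself was at 95.0 to 105 CPM in 61Q/Q and 88.1 to 108 CPM in 61P/P. It was at 117 to 126 CPM in the 61H/H libraries and 107 to 124 CPM in the 61R/R libraries, and the codon 61 allele of a read was not examined. Within 61Q/Q, replicate 2 stood apart for the genes described here, and the comparisons of these genes with 61Q/Q were therefore also fitted without it. Its mean deviation from the gene means over 12 libraries was 0.203 on the log2 scale. In replicates 1 and 3 it was -0.42 and -0.363. The mutant libraries lay between -0.131 and 0.295, so replicates 1 and 3 were the ones outside that range. As these same genes singled replicate 2 out, counts and p-values without it are given below as descriptions only.

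Per length of transcript, the fatty acid desaturase gene Scd2 had the highest level of the 30, with a mean of 188 RPKM (CPM per kilobase of exon) over the 12 libraries. Msmo1 (69.4 RPKM), Acly (68.8 RPKM), Fdps (64.0 RPKM), Hmgcs1 (55.4 RPKM) and Fasn (55.3 RPKM) followed. The lowest were Tm7sf2 (3.74 RPKM) and Acss2 (3.23 RPKM), and Pmvk was at 7.48 RPKM. The lowest raw count of any of the 30 genes in any library was 276, in Tm7sf2. The exons of 6 of the 30 shared bases with an exon of another gene. The longest overlap was 773 bases between Fdft1 and Ctsb on opposite strands, and Lss, Acss2 and Srebf1 also had partners on the opposite strand. The library kit keeps strand, but whether the counting used it was not given in the sources used here, so levels of these 4 genes may hold reads of the partner.

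RefSeq (GRCm38.p6) promoter windows were at hand for 24 of the 30 genes, and the 250 bases before each start were searched for sites that SREBPs and a common partner, NF-Y, are known to bind. The CCAAT box of NF-Y, CCAAT on either strand, was present in 19 of 24 genes (79.2%), against 37.5% of the 27025 genes with a window. It was found in 14 of 15 sterol genes, Acat2 being the exception, and was not matched in Scap, Acly, Acaca and Elovl6. The core of the sterol regulatory element, CACNCCAC on either strand, was matched in Acat2, Hmgcs1 and Insig1, or 12.5% of 24 genes against 6.05% of all genes. Its longer form TCACNCCAC, which contains the core, was matched in Hmgcs1 only of the 24 (1.22% of all genes), and the palindrome TCACGTGA in 0 of 24 (0.907% of all genes). These counts describe letters in a short window and not binding.

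The following stretches are from genes described below whose windows held a match. Scap and Elovl6, also described below, had no match to CCAAT or CACNCCAC and are not shown. Each is read 5′ to 3′ on the strand of the gene, with matches to CCAAT (or ATTGG, the same box on the other strand) and to CACNCCAC (or GTGGNGTG) in capitals. The Hmgcs1 stretch (chr13:119690171-119690230, plus strand) held a CCAAT box and a sterol element, and the Insig1 stretch (chr5:28071372-28071411, plus strand) a sterol element just before the start. The stretches of Mvk (chr5:114444139-114444228, plus strand), Mvd (chr8:122443433-122443492, minus strand), Tm7sf2 (chr19:6067871-6067910, minus strand), Acss2 (chr2:155517953-155517992, plus strand) and Fasn (chr11:120824598-120824647, minus strand) held CCAAT boxes alone, a pair of them overlapping in Fasn.
Hmgcs1: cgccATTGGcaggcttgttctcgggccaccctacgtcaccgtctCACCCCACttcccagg
Insig1: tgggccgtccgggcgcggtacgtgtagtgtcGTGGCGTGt
Mvk: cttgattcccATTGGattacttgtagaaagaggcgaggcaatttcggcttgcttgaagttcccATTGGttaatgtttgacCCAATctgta
Mvd: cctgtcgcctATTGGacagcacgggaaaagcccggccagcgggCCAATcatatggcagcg
Tm7sf2: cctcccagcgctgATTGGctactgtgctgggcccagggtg
Acss2: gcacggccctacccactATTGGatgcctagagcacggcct
Fasn: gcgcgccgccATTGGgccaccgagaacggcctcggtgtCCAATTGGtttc

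The first feature of the 30 genes was that they moved together from culture to culture within a genotype. In 61Q/Q, replicate 2 had the highest level of the 3 libraries for 30 of 30 genes, whereas this library was the highest for 38.2% of all genes tested. Its levels were 1.12-fold (Scap) to 2.10-fold (Elovl6) the mean of replicates 1 and 3, with a median of 1.54-fold over the 30 genes and 0.990-fold over all genes. In 61H/H, replicate 1 was the highest for 29 of 30 genes (36.5% of all genes), and in 61P/P, replicate 1 was the lowest for 27 of 30 (40% of all genes). In 61R/R no library led for most genes to this degree, with replicate 1 highest for 18 of 30.

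**Figure D1:**
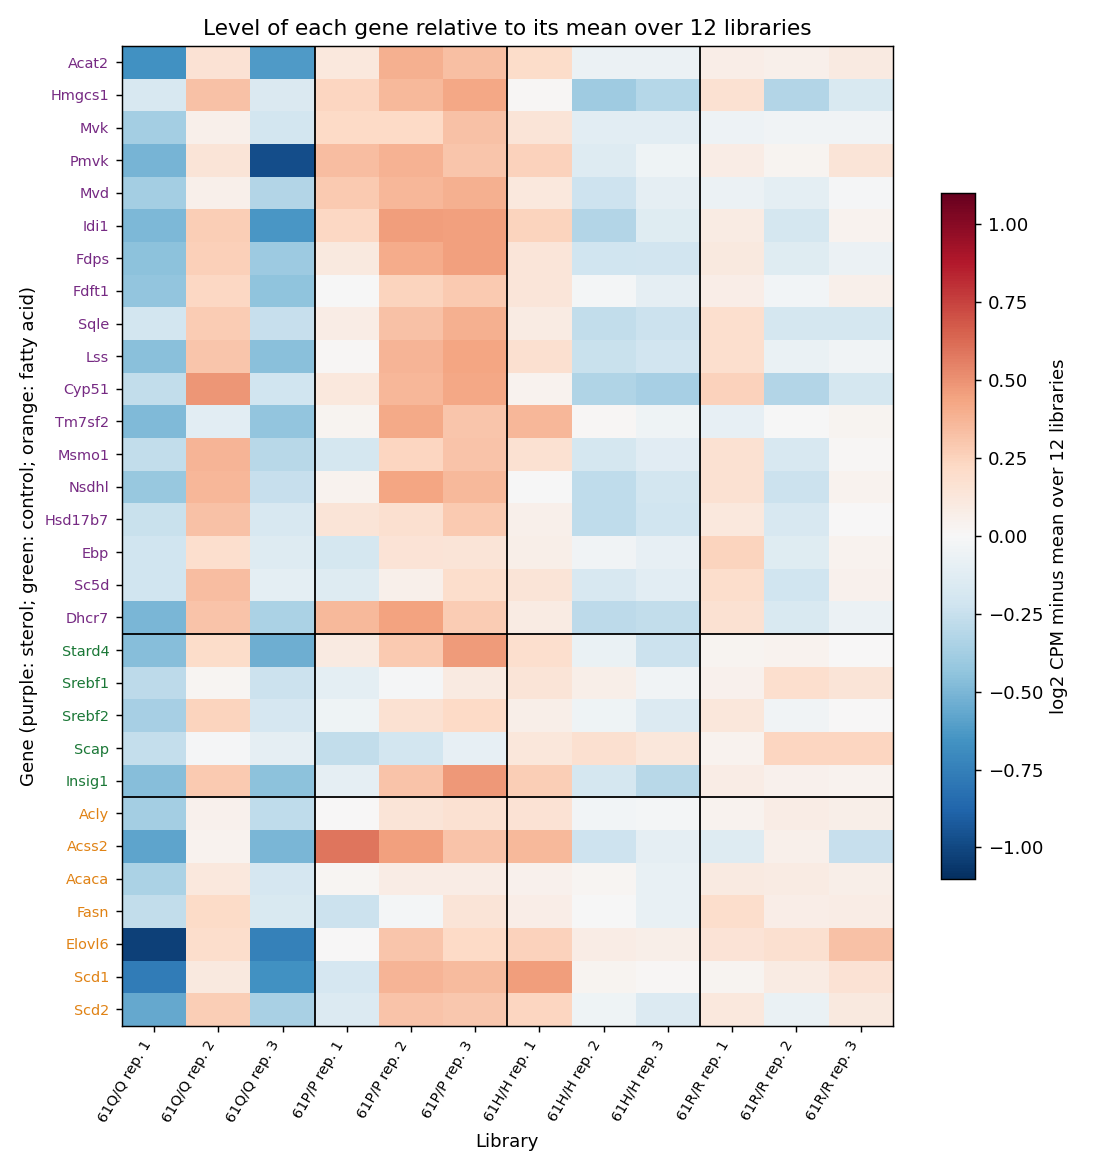
Level of the 30 genes (rows, grouped as sterol, control and fatty acid genes) in the 12 libraries (columns), as log2 CPM minus the mean of the gene over the 12 libraries, with red higher and blue lower. Replicates 1 and 3 of 61Q/Q are blue for nearly every gene while replicate 2 of the same genotype is not, 61P/P is mostly red, and the Scap row follows a different pattern from the rest.

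The sterol genes and the fatty acid genes shared this movement. Over the 12 libraries the median correlation between 2 of the 30 genes was 0.791 (435 pairs), and it was 0.854 on deviations from the genotype means. Without 61Q/Q replicate 2 these values were 0.790 and 0.680 over 11 libraries. They describe few libraries, in which the genes share the depth and the handling of each culture. Scap was the exception, with a median correlation with the other genes of 0.0686 over the 12 libraries and 0.437 on the deviations (0.102 on the deviations without 61Q/Q replicate 2), and Fdps had the highest median, 0.890 over the 12 libraries. The spread of these genes was uneven between genotypes. The median SD of log2 CPM among 3 libraries was 0.360 for the 30 genes in 61Q/Q against 0.145 for all genes, but 0.102 against 0.132 in 61R/R. Between replicates 1 and 3 of 61Q/Q alone it was 0.0551 against 0.0781.

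Markers of dividing cells moved with the lipid genes in 61Q/Q. The summed level of 12 such markers, led by Mki67, was 692 and 683 CPM in replicates 1 and 3 of 61Q/Q and 1160 CPM in replicate 2, and it lay between 1115 and 1301 CPM in the 9 mutant libraries. Macrophage markers summed to 206 CPM in replicate 2 and 309 to 310 CPM in the other 2 libraries of 61Q/Q. The fibroblast marker sum was also lowest in replicate 2. Replicate 1 of 61Q/Q was the one of its genotype with Xist counts, and replicates 2 and 3 had Y-linked counts. In 61H/H the cycling sums of replicates 1 to 3 were 1220, 1154 and 1126 CPM and the mean deviations of the lipid genes 0.159, -0.128 and -0.131 on the log2 scale. In 61P/P they were 1235, 1115 and 1202 CPM beside 0.0473, 0.266 and 0.295, and in 61R/R 1158, 1301 and 1291 CPM beside 0.0963, -0.0488 and 0.0237. The order of the cycling sums was thus that of the lipid genes in 61H/H, and not in 61P/P or 61R/R. The part of cell division or of embryo sex in the level of the lipid genes was not tested, and in bulk RNA a change in the share of dividing cells and a change in RNA per cell cannot be told apart.

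**Figure D2:**
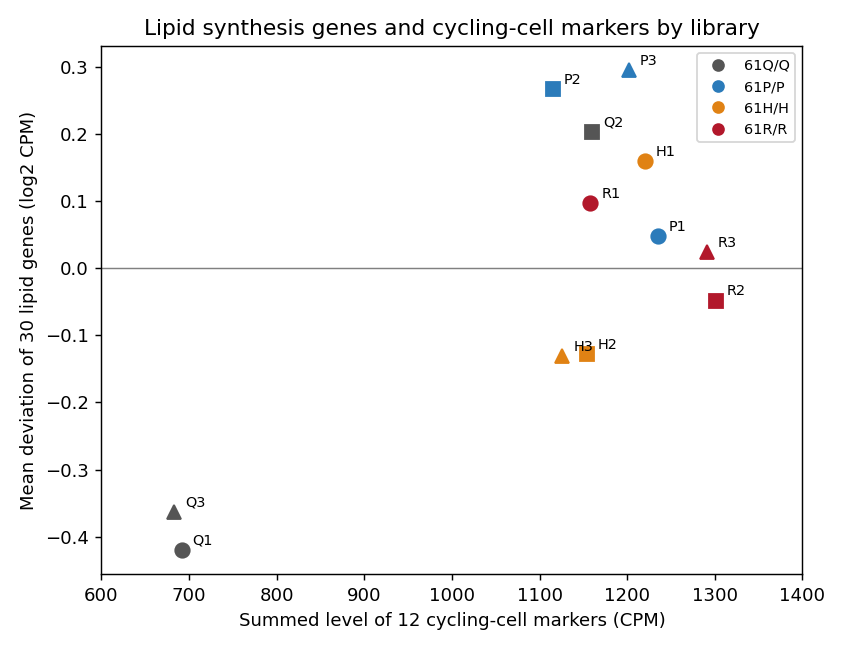
Mean deviation of the 30 lipid genes from their means over 12 libraries (vertical axis, log2 CPM) against the summed level of 12 cycling-cell markers (horizontal axis, CPM), with 1 point per library named by the amino acid of its genotype and its replicate number. Replicates 1 and 3 of 61Q/Q stand alone at the lower left, at 692 and 683 CPM, and the other 10 libraries lie between 1115 and 1301 CPM with deviations of either sign.

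Over the 4 genotypes together, 5 of 30 genes differed by edgeR at an adjusted p under 0.05 (16.7%, against 23.8% of all genes), namely Scap, Mvd, Acss2, Mvk and Tm7sf2. There were 23 of 30 without 61Q/Q replicate 2 (31.6% of all genes). The pairs of genotypes are described in turn, and the comparisons with 61Q/Q share its 3 libraries.

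The non-melanomagenic mutant 61P/P was compared with 61Q/Q to ask what a codon 61 substitution that does not drive melanoma does to these genes. Levels were higher in 61P/P than in 61Q/Q on average for 29 of 30 genes, including all 18 sterol genes, with a median log2 difference of 0.36 against 0.01 for all genes tested. Of all 15759 genes, 8178 were higher. The 30 genes moved together between cultures, so their signs are not separate observations. The mean of 61P/P was the highest of the 4 genotypes for 24 of 30 genes, which was so for 22.9% of all genes, and that of 61Q/Q the lowest for 23 of 30 (35.0% of all genes). By edgeR's quasi-likelihood test with Benjamini-Hochberg adjustment over all genes, 4 of the 30 rose at an adjusted p under 0.05, or 13.3% of the list, where 6.85% of all genes were called and 3.15% were called higher. They were Mvk, Mvd, Tm7sf2 and Acss2. The count was 8 by DESeq2 (11.6% of all genes) and 5 by limma-voom (6.99%). It was 2 (Acss2 and Mvd) with a replicate block (6.28% of all genes), and 0 when the 6 libraries of these genotypes were fitted alone (3.12%). Of the 12 fits that left out 1 library, 8 called Mvd, 6 Acss2, 4 Mvk and 4 Tm7sf2. The libraries of the 2 genotypes did not overlap for these 4 and Pmvk, all higher in 61P/P (13.9% of all genes).

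Mvd encodes the decarboxylase that makes isopentenyl diphosphate, the isoprenoid building block. It was at 16.6, 22.4 and 17.3 CPM in 61Q/Q replicates 1 to 3 and at 26.4, 27.7 and 28.3 CPM in those of 61P/P. All 61P/P libraries thus lay above all 61Q/Q libraries, and above those of 61H/H (18.4 to 23.3 CPM) and 61R/R (20.1 to 21.4 CPM). The log2 fold change in 61P/P was 0.55 (standard error 0.114, adjusted p = 0.0251 by edgeR). Mvk encodes mevalonate kinase, 2 steps earlier. It was at 18.9, 25.5 and 21.3 CPM in 61Q/Q and at 28.5, 28.5 and 30.6 CPM in 61P/P, a log2 fold change of 0.41 (standard error 0.103, adjusted p = 0.0398 by edgeR). Pmvk, the kinase between them, was at 7.64, 12.04 and 5.56 CPM in 61Q/Q and 13.9, 14.3 and 13.5 CPM in 61P/P. Its libraries did not overlap either, but the adjusted p was 0.0650 in edgeR with a log2 difference of 0.72. Without 61Q/Q replicate 2 that difference was 1.07 and passed (adjusted p = 0.00185 by edgeR).

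Tm7sf2 encodes a sterol reductase that acts late in the branch. It was at 3.89, 5.03 and 4.02 CPM in 61Q/Q, 5.57, 7.29 and 6.70 CPM in 61P/P, and 7.01, 5.49 and 5.28 CPM in 61H/H. Every library of these mutants was above every 61Q/Q library, and so were those of 61R/R, at 5.11, 5.42 and 5.55 CPM. The log2 fold changes were 0.60 in 61P/P and 0.46 in 61H/H (standard errors 0.148 and 0.147, adjusted p = 0.0394 and 0.0387 by edgeR). The call in 61H/H was made in 6 of 12 fits that left out 1 library. In 61R/R the difference of 0.31 did not pass the test (adjusted p = 0.149 by edgeR).

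The other sterol genes were higher in 61P/P on average without passing the test with all 12 libraries. Idi1, the isomerase of the isoprenoid units, was at 17.3, 29.5 and 15.7 CPM in 61Q/Q and 28.7, 33.6 and 33.5 CPM in 61P/P, with a log2 difference of 0.61 (adjusted p = 0.0974 by edgeR). Acat2, which joins the first acetyl units, was at 27.3, 48.6 and 28.2 CPM in 61Q/Q and 47.2, 57.0 and 54.6 CPM in 61P/P, with a log2 difference of 0.61 (adjusted p = 0.0680 by edgeR). For both genes replicate 2 of 61Q/Q alone reached the range of 61P/P, and without it the differences were 0.95 and 0.93 (adjusted p = 0.00461 and 0.00074 by edgeR). The prenyl synthase Fdps, the squalene synthase Fdft1, the cyclase Lss, the demethylase Cyp51 and the dehydrogenase Nsdhl had log2 differences of 0.48, 0.36, 0.44, 0.27 and 0.35. Those of the demethylating oxidase Msmo1, the isomerase Ebp and the desaturase Sc5d were 0.17, 0.09 and 0.01. Stard4, a carrier of cholesterol between membranes, had a difference of 0.52 (adjusted p = 0.0911 by edgeR), with 21.1, 33.5 and 20.1 CPM in 61Q/Q and 31.3, 35.6 and 40.4 CPM in 61P/P. Without 61Q/Q replicate 2 this difference was 0.80 (adjusted p = 0.00368 by edgeR), and of the 8 genes given by their difference alone, Fdps, Fdft1, Lss and Nsdhl were then called (adjusted p = 0.00266 to 0.0191).

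Acss2 encodes a cytosolic enzyme that makes acetyl-CoA from acetate, and was the one fatty acid gene to pass. It was at 5.94, 9.12 and 6.24 CPM in 61Q/Q and 13.4, 12.1 and 11.1 CPM in 61P/P, with no overlap. In 61H/H it was at 11.4, 7.57 and 8.28 CPM, and in 61R/R at 8.02, 9.23 and 7.46 CPM, so that 61R/R and 61P/P did not overlap but 61H/H and 61P/P did. The log2 fold change in 61P/P against 61Q/Q was 0.78 (standard error 0.187, adjusted p = 0.0367 by edgeR), the largest difference of the 30 genes in this comparison. Its correlation with the other genes across libraries was lower than that of most (median 0.627 on deviations from genotype means), and 61P/P replicate 1, the lowest of its genotype for 27 of the 30 genes, was the highest for Acss2.

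**Figure D3:**
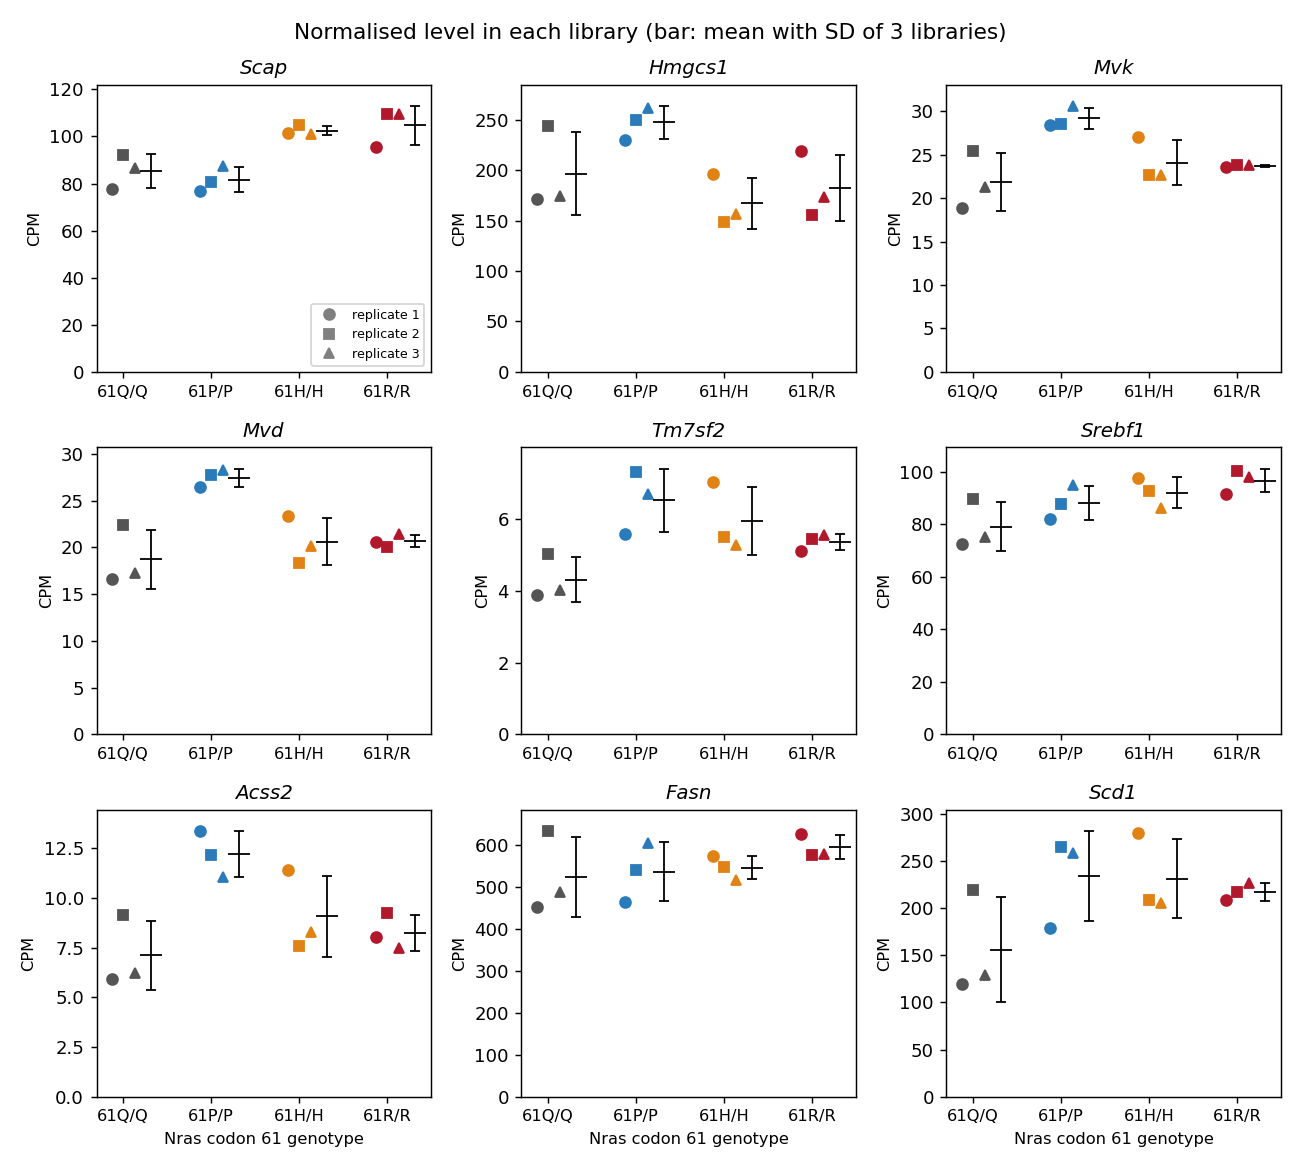
Normalised level (CPM, vertical axes from 0) of 9 of the 30 genes in each library by genotype, with the replicate given by the symbol and the mean and SD of 3 libraries to the right of each group. Scap is at 95.3 CPM or more in all 61H/H and 61R/R libraries and at 91.9 CPM or less in all others, Mvd and Acss2 are highest in 61P/P, and the square of 61Q/Q replicate 2 lies above the other 2 symbols of its genotype in every panel.

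In the melanomagenic mutants 61R/R and 61H/H, the share of the 30 genes called against 61Q/Q was below the share of all genes. In 61R/R, 2 of 30 rose and 0 fell (6.67%, against 19% of all genes called, with 9.43% higher), namely Srebf1 and Scap. In 61H/H, 2 of 30 rose and 0 fell (6.67%, against 28.2% of all genes called, with 13.8% higher), namely Tm7sf2 and Scap. Median log2 differences over the 30 genes were 0.20 for 61R/R and 0.13 for 61H/H, against 0.01 for all genes in each. The fatty acid genes had medians of 0.23 in both, and all 7 were above 0 in both, but 0 of 7 passed the test in either. At an unadjusted p under 0.05 by edgeR there were 2 of 7 in 61R/R and 3 of 7 in 61H/H. Of all genes tested, 5678 of 15759 in 61R/R and 6658 of 15759 in 61H/H were under this value. Of the sterol genes, 13 of 18 were above 0 in 61R/R and 10 of 18 in 61H/H.

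Srebf1 encodes SREBP1, the SREBP best known for fatty acid genes. It was at 72.3, 89.7 and 75.2 CPM in 61Q/Q and 91.7, 100.5 and 97.9 CPM in 61R/R, with no overlap, at a log2 fold change of 0.29 (standard error 0.0879, adjusted p = 0.0421 by edgeR). This call was made in 4 of 12 fits that left out 1 library. In 61H/H it was at 97.6, 92.6 and 86.1 CPM and in 61P/P at 82.0, 87.8 and 95.0 CPM, both overlapping 61Q/Q because of its replicate 2. Without that library Srebf1 was called in all 3 mutants, with differences of 0.26 for 61P/P, 0.39 for 61R/R and 0.32 for 61H/H (adjusted p = 0.0464, 0.00545 and 0.00993 by edgeR). Srebf2, which encodes the SREBP best known for sterol genes, was at 149, 228 and 168 CPM in 61Q/Q and 173 to 224 CPM in the mutants, and passed no test with all 12 libraries. Without 61Q/Q replicate 2 it was called in 61P/P (0.39, adjusted p = 0.0260) and in 61R/R (0.30, adjusted p = 0.0412 by edgeR). Insig1 was at 71.5, 121 and 72.6 CPM in 61Q/Q, 92.6, 123 and 138 CPM in 61P/P and 80.1 to 119 CPM in 61H/H and 61R/R, and likewise passed no test with all 12, while without that library it was called in 61P/P (0.71, adjusted p = 0.0278 by edgeR).

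Scap was the one gene of the 30 whose levels separated the melanomagenic class from the other genotypes without overlap. It was at 77.6, 91.9 and 86.6 CPM in 61Q/Q, 76.9, 80.8 and 87.3 CPM in 61P/P, 101, 105 and 101 CPM in 61H/H, and 95.3, 109 and 109 CPM in 61R/R. All 6 melanomagenic libraries were above all 6 others, which was so for 3.92% of all genes. A count of 1 in 30 is close to that share, so it does not set this list of genes apart. In the contrast of the mean of 61R/R and 61H/H with the mean of 61P/P and 61Q/Q, 2 of the 30 genes were called (6.67%, against 28.8% of all genes). In the fit without 61Q/Q replicate 2 there were 7 of 30, all higher (23.3%, against 18.8% of all genes called higher). Scap was higher by 0.31 on the log2 scale (standard error 0.0548, adjusted p = 0.00459 by edgeR), which is 1.24-fold, and it was called in this contrast in each of the 12 fits that left out 1 library (adjusted p = 0.000895 to 0.0158). Against 61Q/Q alone Scap was higher by 0.29 for 61R/R and 0.26 for 61H/H (adjusted p = 0.0286 and 0.0283 by edgeR), and 61P/P differed from 61Q/Q by -0.06 (adjusted p = 0.647). These pairwise calls were less stable than that of the class, at 8 of 12 fits for 61R/R (adjusted p up to 0.120) and 7 of 12 for 61H/H (up to 0.107). With the 6 libraries of each pair alone the adjusted p was 0.0830 for 61R/R and 0.0318 for 61H/H by edgeR.

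Hmgcs1, which encodes the synthase that makes HMG-CoA, the precursor of mevalonate, was the other gene called in the class contrast, and it was lower. It was at 172, 244 and 174 CPM in 61Q/Q, 229.8, 249.7 and 262 CPM in 61P/P, 196, 149 and 157 CPM in 61H/H, and 219, 156 and 173 CPM in 61R/R. The 2 classes overlapped, since 61Q/Q replicates 1 and 3 lay within the range of the melanomagenic libraries. Its log2 difference was -0.34 (standard error 0.114, adjusted p = 0.0458 by edgeR). This call was lost in 9 of 12 fits that left out 1 library, and without 61Q/Q replicate 2 the difference was -0.24 (adjusted p = 0.0758).

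Direct comparison of the melanomagenic mutants with 61P/P left out the 61Q/Q libraries from the difference itself, although they still shared in the estimate of spread. All 18 sterol genes were lower in 61H/H than in 61P/P on average and 17 of 18 were lower in 61R/R, with medians of -0.36 and -0.28. Of all 15759 genes, 8120 were lower in 61H/H and 7868 in 61R/R, with medians of -0.01 and 0.00. The sterol genes moved together between cultures, so their signs are not separate observations. The 7 fatty acid genes had medians of -0.06 and -0.04. Few of these differences passed the test. In 61R/R against 61P/P only Scap was called of the 30 (higher by 0.36, adjusted p = 0.0371, with 3.45% of all genes called). That call was made in 5 of 12 fits that left out 1 library (adjusted p up to 0.175) and was lost with these 6 libraries alone (adjusted p = 0.0951 by edgeR). In 61H/H against 61P/P 0 of 30 were called (2.49% of all genes). At an unadjusted p under 0.05 by edgeR there were 5 of 30 in 61R/R against 61P/P, 4 of them lower. Of all genes, 3661 of 15759 were under this value there. In 61H/H against 61P/P there were 11 of 30, 10 of them lower, against 24.6% of all genes. DESeq2 called 3 of 30 there (Hmgcs1 and Mvd lower, Scap higher, with 9.03% of all genes called) and limma-voom 1 (Scap, with 2.72% of all genes called). For Mvd the log2 difference was -0.41 in both (adjusted p = 0.0693 in 61R/R and 0.0663 in 61H/H by edgeR). The libraries of 61R/R lay wholly below those of 61P/P for 12 of 30 genes (13% of all genes), and those of 61H/H for 8 of 30 (16.2% of all genes), with Hmgcs1, Mvk, Pmvk, Mvd, Hsd17b7 and Dhcr7 in both lists. Dhcr7 encodes the reductase of the last step to cholesterol, and Hsd17b7 a reductase that acts during removal of the methyl groups.

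Between the 2 melanomagenic genotypes, 0 of 30 genes were called by edgeR, DESeq2 or limma-voom, and 0 of 30 had an unadjusted p under 0.05 (4.94% of all genes), where edgeR called 0% of all genes. Log2 differences between 61R/R and 61H/H ran from -0.14 (Tm7sf2) to 0.15, with a median of 0.06. Acaca and Fasn, which encode the carboxylase and the synthase of fatty acids, were the genes whose libraries did not overlap, with 61R/R higher (5.62% of all genes). Fasn was at 573, 547 and 517 CPM in 61H/H and 626, 576 and 578 CPM in 61R/R, a log2 difference of 0.12 with a standard error of 0.122.

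The levels of the branches relative to each other were also compared library by library. For each library the mean deviation of the 7 fatty acid genes was subtracted from that of the 18 sterol genes, a summary chosen after its values were seen and therefore given without a test. Deviations are from the mean over the same 12 libraries, so that positive values in some libraries require negative ones in others, and only the order of the libraries is read here. The result was 0.186, 0.101 and 0.0559 on the log2 scale in 61Q/Q, 0.0912, 0.0881 and 0.114 in 61P/P, -0.0929, -0.175 and -0.113 in 61H/H, and 0.0446, -0.206 and -0.0936 in 61R/R. All 6 libraries of 61P/P and 61Q/Q were thus above all 6 of 61H/H and 61R/R, although 61R/R replicate 1 had the same sign as they did and lay close to 61Q/Q replicate 3. The order of these 2 libraries depended on 1 gene, Elovl6. Its deviations were the largest of the 7 fatty acid genes in 61Q/Q replicates 1 and 3, at -1.03 and -0.743. The separation of all 6 from all 6 therefore does not describe the fatty acid genes as a group. In this measure 61Q/Q replicate 2 lay between the other 2 libraries of its genotype, since both branches were higher in it. Fibroblast marker sums also differed between the classes, at 24890 to 43590 CPM in 61P/P and 61Q/Q and 16290 to 27280 CPM in 61H/H and 61R/R. Abundant markers such as Col1a1 weigh most in the sum. Col1a1 was at 9036 to 20730 CPM in 61P/P and 61Q/Q and 4119 to 11140 CPM in 61H/H and 61R/R. Not all 12 markers went this way, since Pdgfra was at 64 to 129 CPM in the former and 137 to 254 CPM in the latter. The part of these markers in the difference between the branches was not tested.

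**Figure D4:**
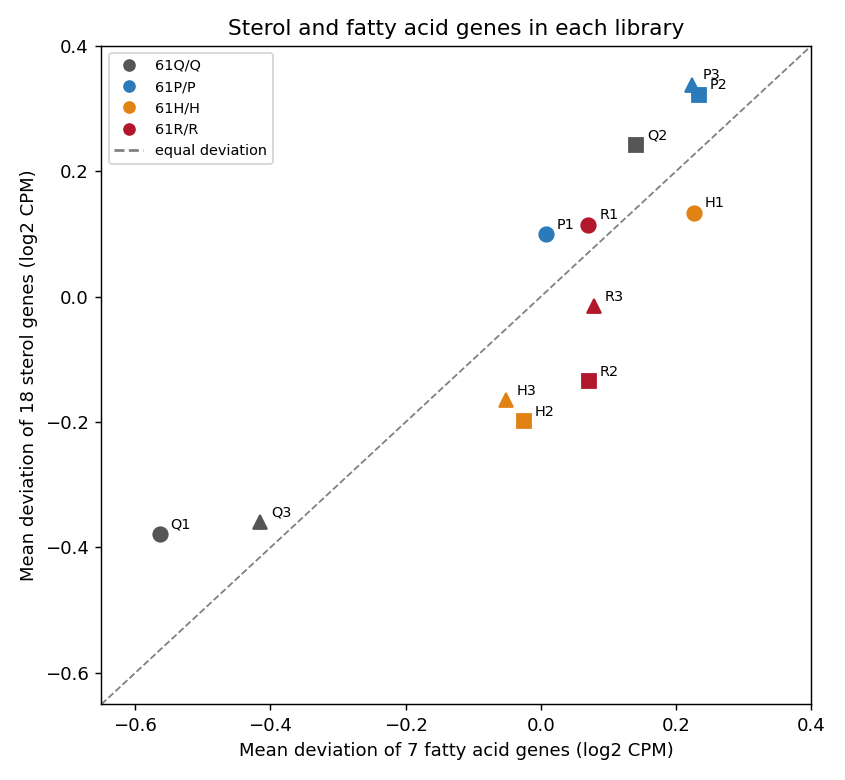
Mean deviation of the 18 sterol genes (vertical axis) against that of the 7 fatty acid genes (horizontal axis), both as log2 CPM relative to the mean over 12 libraries, with 1 point per library named by the amino acid of its genotype and its replicate number. Libraries of 61Q/Q and 61P/P lie above the dashed line of equal deviation, whose place is set by the mean over the 12 libraries, by 0.0559 to 0.186, those of 61H/H below it, and 61R/R replicate 1 lies above it by 0.0446 while the other 2 of 61R/R lie below.

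Since replicate 2 of 61Q/Q was the highest of its genotype for all 30 genes, the comparisons with 61Q/Q were refitted without it, a fit in which 61Q/Q has 2 libraries and 15986 genes were tested. More of the 30 genes then passed the test. In 61P/P 24 of 30 rose (80%, against 8% of all genes called higher, the share being 3.15% before), in 61R/R 18 of 30 (60%, against 14.6%), and in 61H/H 16 of 30 (53.3%, against 17.8%), and 0 fell in any of them. Median log2 differences were 0.62, 0.39 and 0.32. Without replicate 1 or replicate 3 of 61Q/Q in its place, 0 of 30 were called in each of the 3 mutants, where 0% to 13.6% of all genes were called. The library was singled out by the values of these same genes, so leaving it out gives no independent test of them. The 2 remaining 61Q/Q libraries lay close together for these genes (median SD 0.0551, against 0.0781 for all genes), which lowers the estimated spread. The larger counts and the adjusted p-values of this fit, above and below, describe how much the result rests on 1 culture. They do not show which of the 61Q/Q libraries is typical.

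Without that library 6 of 7 fatty acid genes rose in each of the 3 mutants (85.7%). Of all genes, 8% were called higher in 61P/P, 14.6% in 61R/R and 17.8% in 61H/H. Elovl6 encodes an elongase that extends palmitate. It was at 39.3, 91.6 and 48.0 CPM in 61Q/Q, and from 80.7 to 100.5 CPM in all 9 mutant libraries. Its log2 difference without replicate 2 was 1.06 for 61P/P, 1.10 for 61R/R and 1.02 for 61H/H (adjusted p = 0.00074, 0.000322 and 0.00058 by edgeR). With all 12 libraries the differences were 0.61, 0.65 and 0.56 and did not pass (adjusted p = 0.129, 0.0777 and 0.0966). Scd1, which encodes a desaturase that makes oleate, was at 119, 219.6 and 129 CPM in 61Q/Q, 179, 264 and 258 CPM in 61P/P, 279.6, 208 and 206 CPM in 61H/H, and 208, 217 and 227 CPM in 61R/R. Its log2 differences without replicate 2 were 0.92, 0.81 and 0.90 in 61P/P, 61R/R and 61H/H (adjusted p = 0.00899, 0.00783 and 0.00389 by edgeR).

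Scd2 was at 682, 1216 and 788 CPM in 61Q/Q and 911 to 1252 CPM in the mutants, and Acly, which splits citrate to supply acetyl-CoA, at 233, 313 and 249 CPM in 61Q/Q and 296 to 341 CPM in the mutants. For both, replicate 2 of 61Q/Q lay within the range of the mutants and the other 2 libraries below it. Fasn was at 453, 632 and 487 CPM in 61Q/Q and 464 to 626 CPM in the mutants, and without replicate 2 it was called in 61R/R (0.34, adjusted p = 0.0306 by edgeR) but not in 61P/P (0.19, adjusted p = 0.229).

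Counts of sterol genes were unequal between mutants in that fit, and the same limit applies to them and to its p-values. Called higher were 14 of 18 in 61P/P (77.8%, against 8% of all genes), 8 of 18 in 61R/R (44.4%, against 14.6%) and 7 of 18 in 61H/H (38.9%, against 17.8%). Sqle, which encodes the epoxidase that starts ring closure, was at 92.5, 129.5 and 89.3 CPM in 61Q/Q, 113, 133 and 139.6 CPM in 61P/P, and 88.5 to 122 CPM in the 6 melanomagenic libraries. It was called in 61P/P (0.50, adjusted p = 0.0441) but not in either melanomagenic mutant, where the difference was 0.18 for 61R/R (adjusted p = 0.380) and 0.10 for 61H/H (adjusted p = 0.603). Hmgcs1 was called in 61P/P (0.52, adjusted p = 0.0415) and in neither other mutant against 61Q/Q. The difference between mutants was tested directly in the comparisons with 61P/P, where without this library 3 of 18 sterol genes were lower in 61H/H (Hmgcs1, Mvd and Dhcr7) and 1 of 18 in 61R/R (Mvd), with 2.1% and 2.97% of all genes called lower. Mvd differed from 61P/P by -0.41 in both (adjusted p = 0.0242 in 61R/R and 0.0309 in 61H/H by edgeR).

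**Figure D5:**
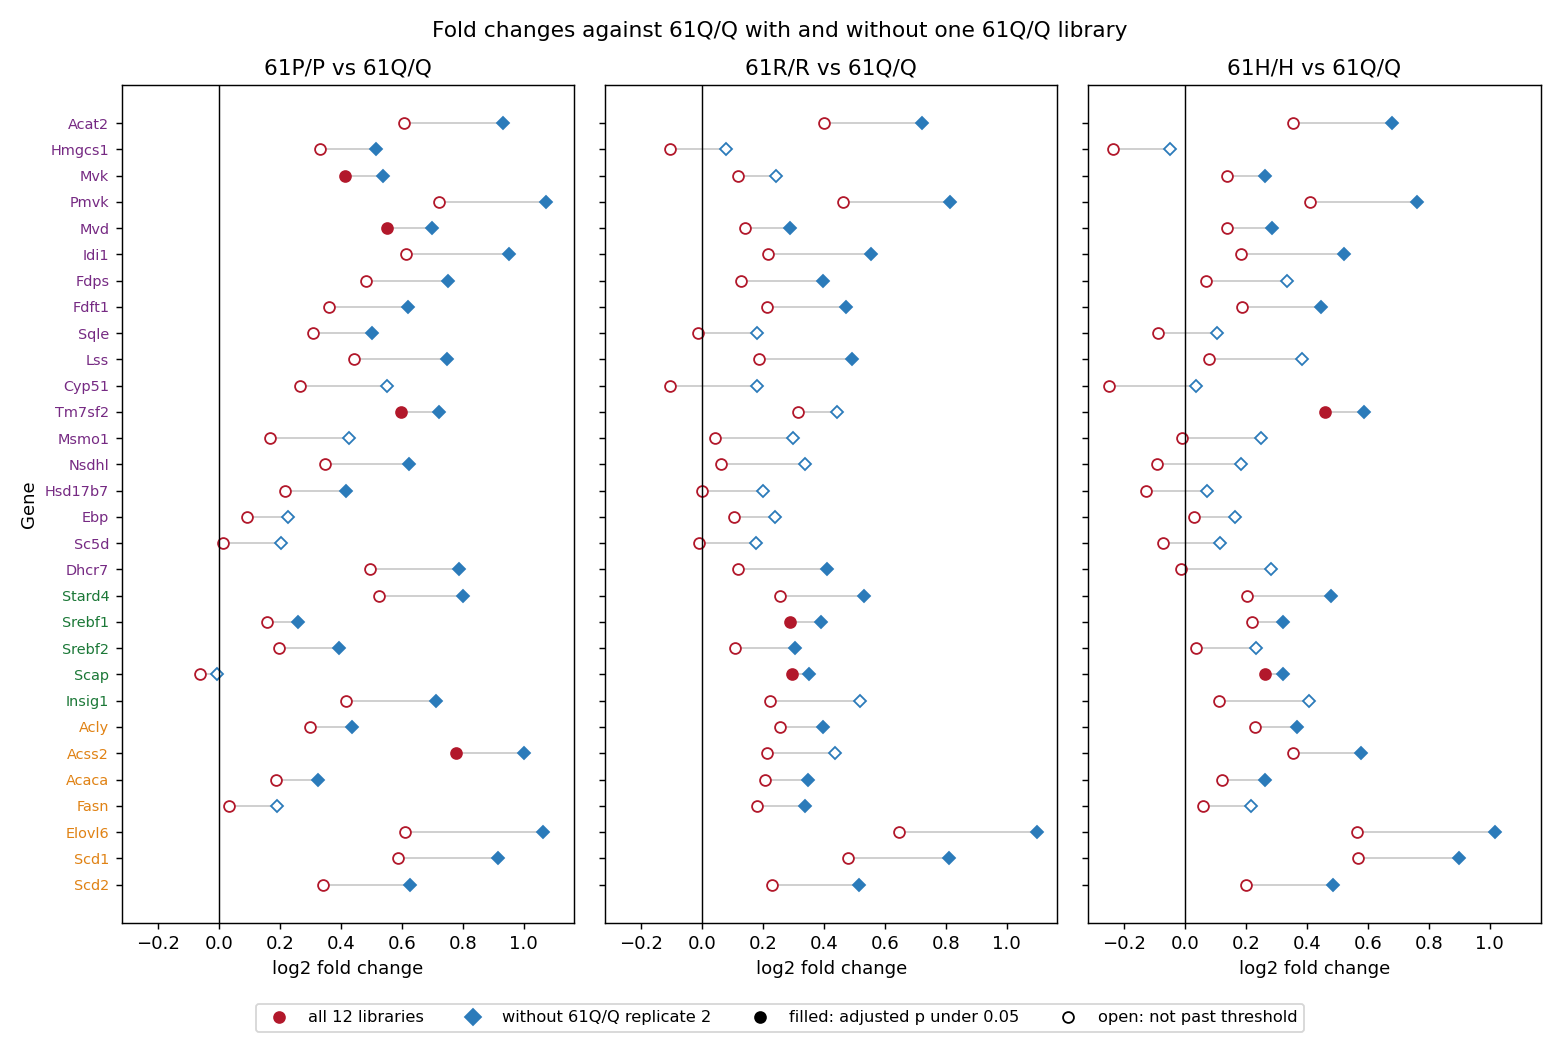
Log2 fold change of each of the 30 genes (rows) in 61P/P, 61R/R and 61H/H against 61Q/Q, with all 12 libraries (red circles) and without 61Q/Q replicate 2 (blue diamonds), filled where the adjusted p was under 0.05. Every diamond lies to the right of its circle, and filled symbols go from 4, 2 and 2 with all libraries to 24, 18 and 16 without the one library.

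Other genes of lipid metabolism, listed from knowledge of the pathways, were counted in the same fits. Of 13 genes that use the isoprenoid intermediates for prenyl groups, dolichol and ubiquinone, 0 rose and 1 fell in 61P/P against 61Q/Q, 1 rose and 1 fell in 61H/H, and 0 were called by edgeR in 61R/R (4 at an unadjusted p under 0.05), with medians of -0.04, -0.05 and -0.02. The shares called were 7.69%, 15.4% and 0%, near or below the 6.85%, 28.2% and 19% of all genes. In 61R/R 5678 of all 15759 genes had an unadjusted p under 0.05 by edgeR. Of 11 genes of SREBP processing and sterol sensing other than those above, 1 rose and 3 fell in both 61R/R and 61H/H, and 0 were called by edgeR in 61P/P (4 at an unadjusted p under 0.05). The share of 36.4% in both compares with 19% of all genes in 61R/R and 28.2% in 61H/H. In 61P/P 4270 of all 15759 genes had an unadjusted p under 0.05 by edgeR. Without 61Q/Q replicate 2, 4 of 11 genes were called in 61P/P (36.4%, against 15% of all genes). Sec24d and Sec23a, subunits of the COPII coat that carries cargo out of the endoplasmic reticulum, fell by 0.33 and 0.50 in 61R/R (adjusted p = 0.0220 and 0.0194) and by 0.42 and 0.53 in 61H/H (adjusted p = 0.00537 and 0.00614 by edgeR). Sec24d was at 203, 194 and 205 CPM in 61Q/Q and 151, 146 and 154 CPM in 61H/H. Erlin1, a membrane protein that takes part in sterol-regulated degradation, rose by 0.33 for 61R/R and 0.36 for 61H/H (adjusted p = 0.0254 and 0.0109 by edgeR).

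Of 25 other genes of fatty acid synthesis, elongation and desaturation that passed the filter, 1 rose and 4 fell in 61R/R, 2 rose and 4 fell in 61H/H, and 1 rose and 1 fell in 61P/P. These shares of 20%, 24% and 8% were close to those of all genes (19%, 28.2% and 6.85%). Without 61Q/Q replicate 2 they were 42.3%, 42.3% and 19.2% of 26 genes, against 28.4%, 34.3% and 15% of all genes. Lpin1, a phosphatidate phosphatase of lipid synthesis, rose in all 3, by 0.43 for 61P/P, 0.45 for 61R/R and 0.46 for 61H/H (adjusted p = 0.0236, 0.0194 and 0.00509 by edgeR). It was at 29.5, 34.1 and 30.7 CPM in 61Q/Q and 37.3 to 46.9 CPM in the mutants, and here too replicate 2 was the highest of 61Q/Q, although without overlap. The elongase Elovl1 and the desaturase family member Fads3 fell in 61R/R and 61H/H, Fads3 by 0.68 and 0.83 (adjusted p = 0.0287 and 0.00850 by edgeR).

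Among 16 genes of cholesterol handling and the sterol receptor LXR, 1 rose and 4 fell in 61R/R against 61Q/Q, 1 rose and 3 fell in 61H/H, and 1 rose in 61P/P. The shares were 31.2%, 25% and 6.25%, against 19%, 28.2% and 6.85% of all genes, so that only the first was above the share of all genes. They were 43.8%, 37.5% and 18.8% without 61Q/Q replicate 2, against 28.4%, 34.3% and 15% of all genes. Nceh1 encodes an enzyme that frees cholesterol from its stored esters. It was at 19.7, 21.5 and 19.8 CPM in 61Q/Q, 18.2, 22.2 and 22.5 CPM in 61P/P, 30.02, 35.1 and 34.4 CPM in 61H/H, and 27.2, 34.7 and 37.0 CPM in 61R/R. The 6 melanomagenic libraries lay above all others, with a log2 difference of 0.68 in the class contrast (adjusted p = 0.00289 by edgeR), and the replicates of 61Q/Q did not differ as they did for the 30 genes. Mylip, which encodes a ligase that degrades lipoprotein receptors, rose in 61P/P by 0.43 (adjusted p = 0.0302) and 61R/R and 61H/H differed from 61P/P by -0.43 and -0.42 (adjusted p = 0.0384 and 0.0494 by edgeR). Abcg1, a sterol exporter, was at 7.99, 11.04 and 14.5 CPM in 61P/P and 20.3, 24.2 and 36.0 CPM in 61R/R, a log2 difference of 1.26 (adjusted p = 0.0397 by edgeR). Of 16 regulators of lipid genes, 2 rose in 61P/P, 1 rose and 1 fell in 61H/H and 0 were called by edgeR in 61R/R (3 at an unadjusted p under 0.05). The shares called were 12.5%, 12.5% and 0%, against 6.85%, 28.2% and 19% of all genes. In 61R/R 5678 of all 15759 genes had an unadjusted p under 0.05. Cebpa, a factor of fat cell differentiation, rose by 1.21 in 61P/P (adjusted p = 0.0355 by edgeR), where replicate 1 was at 11.9 CPM and the other 2 at 6.01 and 5.47 CPM. Adipocyte markers summed to 30.8, 11.3 and 15.2 CPM in 61P/P replicates 1 to 3, and to 15.3 to 20.9 CPM in 61Q/Q. Only replicate 1 of 61P/P thus lay above the range of 61Q/Q.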

How the data were processed

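The deposited raw counts per gene were used. Per the labels and methods, the authors depleted ribosomal RNA, made stranded TruSeq total RNA libraries, aligned the reads to mm10 (STAR), flagged duplicates (Picard 2.17.11) and counted reads by gene (featureCounts). A deposited normalized table was not used. In R 4.3.3 with edgeR 4.0.16, genes were filtered with filterByExpr by genotype (15759 kept), scaled by TMM, and fitted in a quasi-likelihood model with 4 genotype means over all 12 libraries (common dispersion 0.02475). The 8 comparisons were the 6 pairs of genotypes, the melanomagenic class against the others, and any difference among genotypes, with p adjusted over all genes and a threshold of 0.05. Log2 CPM used a prior count of 2. P-values measure the spread between 3 cultures per genotype. The members and lists were chosen with earlier results of these data known. Values in every library were given for the 8 members with the smallest p over the 4 genotypes and for 10 set anchors (SREBP genes, Scap, Insig1 and lipid enzymes), and those of Idi1, Acat2, Stard4 and Elovl6 were added after seeing the data. Up to 3 genes per related list were named, by p over the 4 genotypes. Alternatives were RLE and upper quartile scaling, 2 other filters, DESeq2 1.42.0, limma-voom (limma 3.58.1), a replicate block, fits of only the genotypes compared, a 2-class model and leaving out each library. Leaving out 61Q/Q replicate 2 with 61R/R replicate 1, and a term for the sex of the embryo, were added after seeing the data. The test was tried on simulated data.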

Additional observations from a re-analysis of the deposited data

How the results depend on the processing

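Leaving out 1 library at a time gave 0 to 18 called genes of 30 in 61R/R against 61Q/Q, 0 to 16 in 61H/H against 61Q/Q and 0 to 24 in 61P/P against 61Q/Q, the highest in each case without 61Q/Q replicate 2. The range was 0 to 2 in 61R/R against 61P/P, 0 to 4 in 61H/H against 61P/P, 0 in 61R/R against 61H/H, 1 to 7 in the class contrast and 0 to 23 for any difference among genotypes. Median log2 differences ranged from 0.08 to 0.39 in 61R/R, 0.03 to 0.32 in 61H/H and 0.25 to 0.62 in 61P/P against 61Q/Q, from -0.28 to -0.17 in 61R/R and -0.36 to -0.20 in 61H/H against 61P/P, from 0.01 to 0.16 between 61R/R and 61H/H, and from -0.10 to 0.08 in the class contrast. With only the 6 libraries of the genotypes compared, against 61Q/Q 0 genes were called for 61P/P (3.12% of all genes), 0 for 61R/R (0%) and 1 for 61H/H (29.3%). Against 61P/P the counts were 0 for 61R/R (0.32% of all genes) and 3 for 61H/H (5.09%). DESeq2 called 8 in 61P/P against 61Q/Q (11.6% of all genes), 3 in 61R/R against 61P/P (8%) and 3 in 61H/H against 61P/P (9.03%). In the last comparison upper quartile scaling, the filter of 1 CPM and limma-voom each called 1 (Scap). Without a filter the class contrast called 1 and the test of any difference 3, RLE scaling called 3 in the latter, and the 2-class model called 1. Without both 61Q/Q replicate 2 and 61R/R replicate 1, a choice made after seeing the data, the counts against 61Q/Q were 11 (61R/R), 16 (61H/H) and 25 (61P/P), those against 61P/P were 7 (61R/R) and 9 (61H/H), with 9 in the class contrast and 24 for any difference, and the median in 61P/P was 0.62. A term for sex gave 3 in 61H/H against 61Q/Q. The cause of these changes was not tested. For single named genes no call changed sign, and of their values under the alternatives 2146 kept their side of the threshold, 86 passed it and 78 lost it. Most of these values belong to genes and comparisons not called in the main fit, which had no call to lose. The first count therefore does not measure how stable the calls were.

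The labels state no pairing of cultures by replicate number, and the main fit used none. Same-numbered libraries had correlations from -0.0778 to 0.344 on deviations from the genotype means, over 0.1 in 6 of 18 pairs. These values cannot show whether cultures were handled in pairs. With the replicate block, 2 genes (Acss2 and Mvd) were called in 61P/P against 61Q/Q (6.28% of all genes) and 1 in 61H/H against 61P/P (6.36%). There was 1 in the class contrast (28.5% of all genes) and 3 for any difference (24.1%).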
